A study of Homo sapiens with 14 samples.

Results

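The 10 genes examined encode proteoglycans of the extracellular matrix: versican (VCAN), aggrecan (ACAN), brevican (BCAN), neurocan (NCAN), decorin (DCN), lumican (LUM), biglycan (BGN), fibromodulin (FMOD), asporin (ASPN) and perlecan (HSPG2). They were chosen by name out of 20136 protein-coding genes, and every peak of 14 lists that touched a gene body or the 20 kb on either side was taken. These windows held 20 of 61411 merged p-JUN regions, 5 of 20403 H3K27ac regions, 7 of 20393 H3K4me3 regions and 24 of 25436 H3K27me3 regions. Of the 10 genes, 9 had a peak in at least 1 list and LUM had none in any list. No peak in any list was found at 4.66% of all genes.

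The cells were wild-type LX-2, 1 immortalised line of human hepatic stellate cells, kept for 2 days on a soft or a stiff hydrogel and profiled by CUT&Tag, in which an antibody brings a transposase to its target and the released fragments are sequenced. The antibodies were against phosphorylated JUN (p-JUN, a subunit of the AP-1 transcription factor), H3K27ac (found at promoters and enhancers in use), H3K4me3 (a promoter mark) and H3K27me3 (a Polycomb mark of silenced genes). Each of p-JUN, H3K4me3 and H3K27me3 had 2 soft and 2 stiff libraries, while H3K27ac came as 1 list per matrix, described as merged, and so no replicates. The stiff p-JUN libraries were titled TCP, which the study uses for tissue culture plastic, where the stiff histone libraries were titled 40K. Their treatment label was the stiff matrix all the same, so for p-JUN "stiff" below means the libraries labelled stiff, and plastic and stiff hydrogel cannot be told apart there. The comparison asks whether chromatin marks and p-JUN binding at these genes differed between the matrices.

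A proteoglycan is a core protein that carries glycosaminoglycan chains. VCAN, ACAN, BCAN and NCAN form the lectican family, large chondroitin sulfate proteoglycans that bind hyaluronan and are held to it by link proteins. DCN, LUM, BGN, FMOD and ASPN are small leucine-rich proteoglycans, most of which bind collagen fibrils, and HSPG2 is a heparan sulfate proteoglycan of basement membranes. Stellate cells are the main matrix-producing cells of injured liver. H3K4me3 and H3K27me3 at the same promoter are known as a bivalent state, in which a gene is held silent but can be switched on.

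The lists were of similar length between matrices for p-JUN (48163 to 54168 peaks) and H3K4me3 (18096 to 18857 peaks). For H3K27me3 the soft lists held 19843 and 9228 peaks and the stiff lists 7104 and 6974, and for H3K27ac the soft list held 18238 and the stiff list 13322. A gene called on the soft matrix alone in these 2 marks therefore goes together with a longer soft list, and the part of list length in such a call was not tested unless stated. Of the stellate cell markers, ACTA2, PDGFRB, COL1A1 and VIM carried H3K4me3 within 1 kb of a start site in all 4 libraries, HAND2 in 2 libraries and LRAT in 0. The mark was found at 0 of 4 hepatocyte, 0 of 3 leukocyte and 0 of 2 endothelial markers, and at EPCAM and SOX9 but not KRT19 among 3 cholangiocyte markers.

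The sequence below is the middle of the stretch at VCAN where H3K4me3 and H3K27me3 were called together in every library, shown because VCAN was the only one of the 10 genes with such a stretch. It is the + strand of GRCh37 at chr5:82768577-82768876, within the first intron, and capitals mark its 12 CpG dinucleotides.
VCAN, H3K4me3 with H3K27me3: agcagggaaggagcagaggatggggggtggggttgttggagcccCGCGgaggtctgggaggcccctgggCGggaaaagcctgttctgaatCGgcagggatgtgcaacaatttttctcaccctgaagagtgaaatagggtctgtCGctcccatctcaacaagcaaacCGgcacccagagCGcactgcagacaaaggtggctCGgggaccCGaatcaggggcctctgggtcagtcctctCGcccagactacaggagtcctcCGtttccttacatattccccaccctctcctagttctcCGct

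AP-1 motifs, the letters TGACTCA or TGAGTCA (each the other's reverse complement), were centred within 50 bp of a p-JUN summit in 7 of the 20 p-JUN regions, beside 37.3% of all p-JUN regions. Of those, 6 are shown with 61 bases of the + strand of GRCh37, since they are where the deposited p-JUN peaks of these genes and the AP-1 letters coincide. Capitals mark AP-1 motifs and, in the last, also CATTCC, a TEAD motif.
VCAN, downstream, chr5:82879809-82879869: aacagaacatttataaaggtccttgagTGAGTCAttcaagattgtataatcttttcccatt
BGN, downstream, chrX:152785582-152785642: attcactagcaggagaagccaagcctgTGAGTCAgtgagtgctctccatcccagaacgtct
FMOD, upstream, chr1:203331367-203331427: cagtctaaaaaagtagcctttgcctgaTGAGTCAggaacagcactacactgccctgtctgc
ASPN, upstream, chr9:95251689-95251749: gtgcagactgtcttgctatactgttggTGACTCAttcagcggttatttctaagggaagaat
HSPG2, intron, chr1:22246173-22246233: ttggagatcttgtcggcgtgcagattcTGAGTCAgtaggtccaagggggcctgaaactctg
HSPG2, downstream, chr1:22143547-22143607: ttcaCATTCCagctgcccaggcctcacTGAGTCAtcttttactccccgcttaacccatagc

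Of these 6 regions, those of VCAN, FMOD, ASPN and HSPG2 held the motif near the strongest summit of every library with a peak there. In the intronic HSPG2 region a second, weaker peak of soft replicate 2 had its summit more than 50 bp from the motif. At BGN the motif lay near 3 of 4 library summits. The TEAD letters GGAATG or CATTCC (reverse complements of each other) were near a summit in 4 of the 20 regions, beside 13.7% of all regions. In the HSPG2 window above, TEAD and AP-1 letters did not overlap. The palindromic cAMP response element TGACGTCA was near a summit in 0 of the 20 regions, beside 0.956% of all. These matches describe letters in a window and not binding sites.

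**Figure D1:**
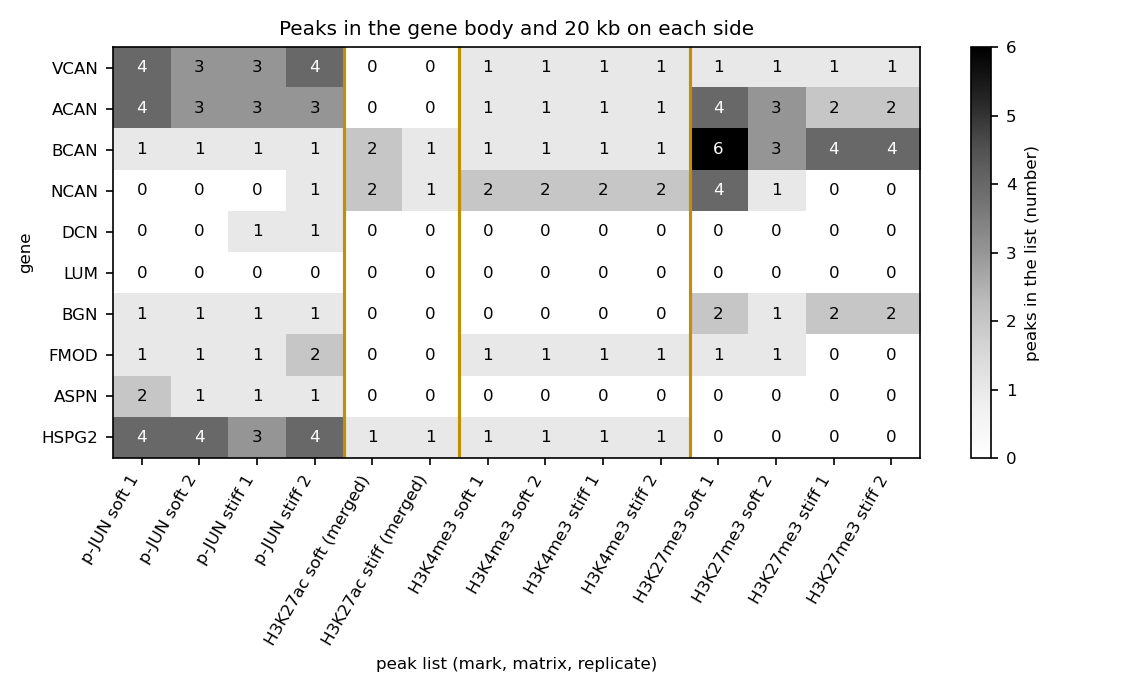
Number of peaks of each list (columns: mark, matrix and replicate) in the gene body and 20 kb on each side of the 10 proteoglycan genes (rows). VCAN, ACAN and HSPG2 held 3 or 4 p-JUN peaks in every library, LUM held 0 peaks throughout, and the 2 peaks of DCN were both in p-JUN libraries labelled stiff.

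Across the windows, p-JUN was called in every library at 7 of the 10 genes (VCAN, ACAN, BCAN, BGN, FMOD, ASPN and HSPG2), beside 74.2% of all protein-coding genes. H3K4me3 was called in every library at 6 (VCAN, ACAN, BCAN, NCAN, FMOD and HSPG2), beside 75.5%, and 0 genes had it on 1 matrix only, beside 0.397%. H3K27me3 was called in every library at 4 (VCAN, ACAN, BCAN and BGN), beside 10.6%, and in no library at 4 (DCN, LUM, ASPN and HSPG2), beside 65.4%. BGN left the first of these, which was then 3, without the flanks, with a −log10 q of at least 2 and with lists of equal length. H3K27ac was called in both lists at 3 (BCAN, NCAN and HSPG2), beside 47.7%, and in neither at 7, beside 37.5%. Many of these peaks lay at neighbouring genes or far from the gene's own start. Without the flanks, the counts in every library were 3 for p-JUN (VCAN, ACAN and HSPG2), 2 for H3K4me3 (VCAN and HSPG2) and 1 for H3K27ac (HSPG2). Within 1 kb of the gene's own start sites, H3K4me3 was called in all 4 libraries at 2 genes, VCAN and HSPG2, beside 61.7% of all genes. H3K27me3 was called there in all 4 libraries at VCAN and ACAN, beside 2.39%. Both marks were called there at VCAN, beside 0.75%, and p-JUN in every library at none of the 10, beside 37.5%.

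VCAN (chr5:82767437-82878122, + strand) encodes versican, a large chondroitin sulfate proteoglycan of provisional and fibrotic matrix. It was the 1 gene of the 10 at which H3K4me3 and H3K27me3 peaks of the same matrix and replicate number overlapped in all 4 library pairs, beside 0.646% of all genes. The H3K4me3 peaks of the 4 libraries lay between 892 and 3136 bp past the 5′ end, starting within the first intron. Their fold over local background was 6.42 and 7.42 on the soft matrix and 7.29 and 6.69 on the stiff matrix, with 143, 200, 220 and 283 fragments at the summits in the same order. The soft and stiff values overlapped.

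H3K27me3 was called over the same intron in all 4 libraries, with a fold of 3.42 and 2.79 on soft against 3.20 and 3.60 on stiff. These folds are averages over broad peaks and cannot be set against the narrow peaks' folds. The peak began 3 bp before the 5′ end in soft replicate 2 and between 825 and 996 bp past it in the other libraries. By −log10 q it ranked 399 of 19843 and 2386 of 9228 peaks on soft, and 1085 of 7104 and 451 of 6974 on stiff. The bases shared with H3K4me3 were 1002 and 651 bp on soft and 646 and 655 bp on stiff. The stretch common to all 4 pairs was 588 bp long (chr5:82768433-82769020), 64.1% G and C, with 40 CpG dinucleotides, a ratio of observed to expected CpG of 0.665 and no overlap with an annotated untranslated region. The marks were separate libraries, so these peaks do not show both marks on the same molecule or in the same cell. At least 1 joint pair was found at 3.54% of all genes and, among the 10, at VCAN alone. With both marks counted anywhere in the window, without overlap, ACAN and BCAN joined it and the count was 3.

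**Figure D2:**
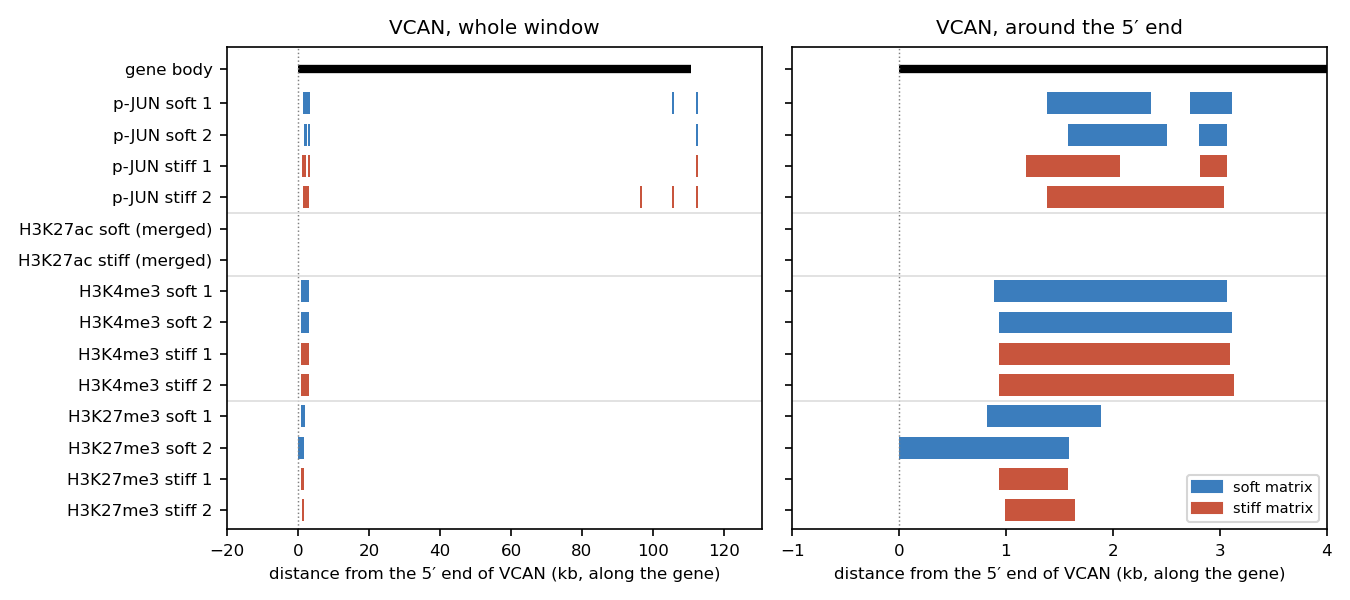
Peaks of the 14 lists (rows) along VCAN, by distance from its 5′ end in kb, over the whole window (left) and around the 5′ end (right). Blue bars are peaks of soft and red bars of stiff libraries, and the black bar is the gene body. In every library H3K4me3 and H3K27me3 bars overlap between 996 and 1583 bp, and the H3K27ac rows are empty.

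p-JUN was called in the same intron, between 1190 and 3112 bp past the 5′ end, in all 4 libraries. The stronger peak of each library, which gave the region's height, had a fold of 4.99 and 6.52 on soft against 4.77 and 5.99 on stiff. These came from 48, 56, 36 and 59 fragments. In stiff replicate 1 the stronger peak had its summit 2883 bp past the 5′ end, and in the other libraries 1581 to 1820 bp past it. The peak of stiff replicate 1 at 1643 bp had a fold of 4.65 and 35 fragments. Here too the values of the matrices overlapped. This p-JUN region touched both H3K4me3 and H3K27me3. Over all p-JUN regions 23% touched H3K4me3 and 1.28% touched H3K27me3, and among the 20 regions of the proteoglycan genes 4 and 2 did.

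The p-JUN region with the AP-1 motif lay past the 3′ end of VCAN, 112.4 kb from the 5′ end, and was called in all 4 libraries. Its fold was 10.4 and 9.18 on soft against 8.87 and 6.23 on stiff, from 43, 32, 31 and 20 fragments, so both soft values were above both stiff values. The fold in stiff replicate 2 was the lowest of the 4. In limma, the log2 fold centred on each library's median was lower on stiff by 0.44 (−0.44 ± 0.20, SE, 2 libraries against 2), with an adjusted p of 0.554 over all p-JUN regions. It was −0.12 without stiff replicate 2 and −0.76 without stiff replicate 1. A region 105.6 kb from the 5′ end, in an intron, was called in soft replicate 1 (fold 11.6, 45 fragments) and stiff replicate 2 (10.1, 33 fragments) only. Another at 96.7 kb was called in stiff replicate 2 only (5.94, 19 fragments). Both overlap the antisense gene VCAN-AS1, which these data cannot separate from VCAN. No H3K27ac peak was listed in the VCAN window in either list.

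ACAN (chr15:89346667-89418584, + strand) encodes aggrecan, the main proteoglycan of cartilage. H3K27me3 was called within 1 kb of an ACAN start in all 4 libraries, over the 5′ end itself in soft replicate 1 and beginning 367 to 594 bp past it in the others, with a fold of 2.35 and 2.52 on soft against 2.48 and 2.67 on stiff, which overlapped. The only H3K4me3 in its window lay 91.8 kb from its 5′ end, 0.324 kb from the start of HAPLN3, a link protein gene, so near its own start ACAN carried H3K27me3 without H3K4me3. The other H3K27me3 peaks of ACAN were called in 1 to 3 libraries.

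p-JUN was called in all 4 libraries at 3 places around ACAN. The region 3.16 kb upstream had a fold of 9.0 and 9.30 on soft against 8.86 and 8.17 on stiff. The intronic region at 30.9 kb, which held a TEAD motif near all 4 summits, had 8.21 and 9.59 on soft against 8.08 and 8.13 on stiff. At both, the deposited folds of the soft libraries were above those of the stiff libraries, while the values centred on each library's median overlapped, with limma differences of −0.15 ± 0.11 and −0.17 ± 0.12 (SE) and adjusted p of 0.751 and 0.699. The downstream region at 79.4 kb, within HAPLN3, had 4.13 and 5.58 on soft against 5.90 and 6.76 on stiff, from 24, 28, 31 and 36 fragments. Both stiff values were above both soft values, with a limma difference of 0.35 ± 0.15 (log2, stiff minus soft, SE) and an adjusted p of 0.536. It was 0.13 without soft replicate 1 and 0.57 without soft replicate 2. A further region at 75.7 kb was listed in soft replicate 1 only (5.04, 30 fragments). No H3K27ac was listed at ACAN.

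BCAN (chr1:156611182-156629324, + strand) encodes brevican, a lectican known mainly from brain. The p-JUN peak with the most fragments among the 10 genes lay 19 kb from its 5′ end, just past its last exon. It held 789 and 728 fragments on soft against 587 and 634 on stiff, over a local background of 53.3 to 70.5 fragments, so that its fold was 11, 11.5, 10.8 and 10.8. The soft values were above the stiff values in both measures, and the limma difference was −0.10 ± 0.10 (SE) with an adjusted p of 0.819. It was −0.034 without stiff replicate 2 and −0.17 without stiff replicate 1. The peak ranked 192 to 547 in lists of 48163 to 54168 peaks.

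At the same place H3K4me3 was called in all 4 libraries (7.13 and 9.75 on soft, 7.49 and 8.64 on stiff) and H3K27ac in both lists. The H3K27ac summits held 30 fragments on soft (exact 95% Poisson interval 20.2 to 42.8) and 35 on stiff (24.4 to 48.7), and these intervals, which cover counting error only, overlapped. A second H3K27ac peak 20.04 kb from the 5′ end was listed on soft only (31 fragments). The p-JUN and H3K4me3 regions and this second H3K27ac peak hold the annotated 5′ end of the antisense gene BCAN-AS2 (chr1:156616299-156631216, − strand), and the nearest start of a protein-coding gene, NES, was 17.0 kb away. BCAN's own start carried no H3K4me3. H3K27me3 lay on both sides of it in all 4 libraries, 1.51 to 1.63 kb upstream (1.98 and 2.16 on soft, 2.00 and 2.01 on stiff) and between 962 and 2718 bp past the 5′ end (2.04 and 1.97, then 2.04 and 1.99). The upstream peaks of the 4 libraries overlapped one another, but past the 5′ end the peak of stiff replicate 1 (2110 to 2710 bp) and that of stiff replicate 2 (974 to 1345 bp) did not.

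**Figure D3:**
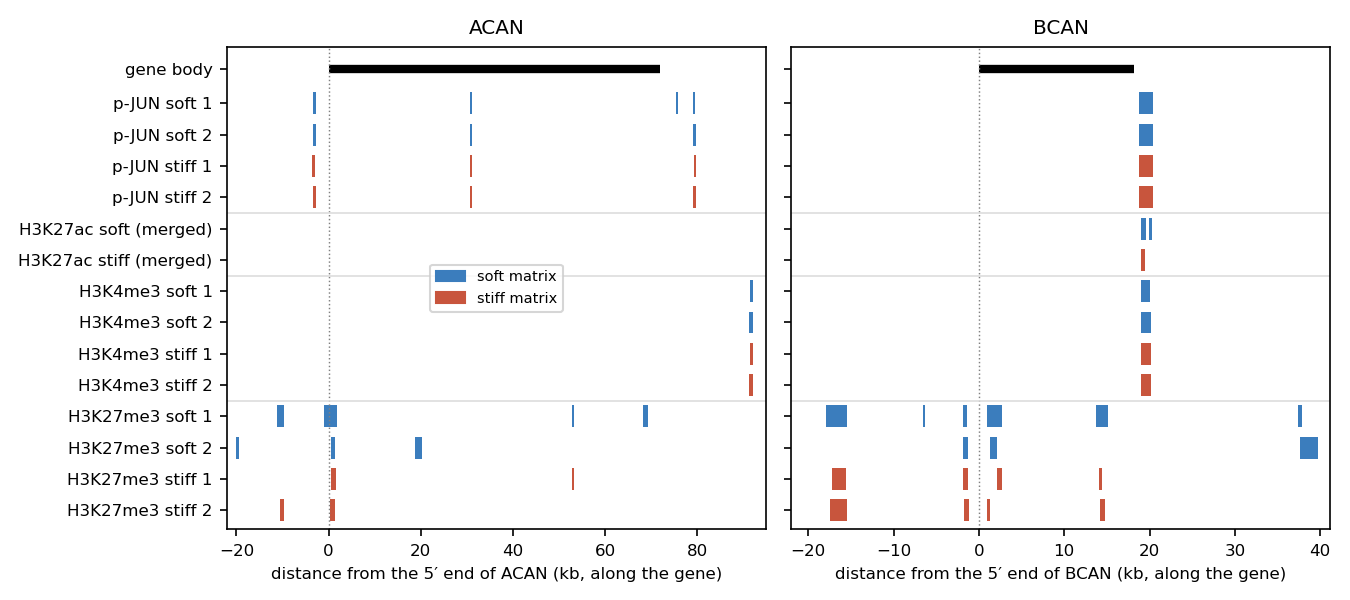
Peaks of the 14 lists (rows) in the windows of ACAN (left) and BCAN (right), by distance from each 5′ end in kb. Blue bars are peaks of soft and red bars of stiff libraries, and the black bar is the gene body. H3K27me3 bars within 1 kb of the ACAN start and on both sides of the BCAN start appear in all 4 rows, and p-JUN, H3K27ac and H3K4me3 bars stack 19 to 20 kb from the 5′ end of BCAN.

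NCAN (chr19:19322767-19363042, + strand) encodes neurocan, also a brain lectican, and had no H3K4me3 and no p-JUN peak of its own. Its window reaches neighbouring genes, and the 2 H3K4me3 regions called in all 4 libraries lay 0.082 kb from the RFXANK start and 0.229 kb from the NR2C2AP start. H3K27ac was listed at RFXANK and BORCS8 with 19 fragments on soft and 15 on stiff, and at NR2C2AP with 16 on soft only. H3K27me3 was called in the NCAN window on soft only, with 4 peaks in replicate 1 and 1 in replicate 2, and no peak was at the same place in both.

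The soft-only H3K27me3 call was shared by FMOD, so 2 of the 10 genes had it, beside 3.61% of all genes. FMOD too had 1 peak in each soft library, 9.14 kb from the 5′ end in one and 10.7 kb upstream in the other, so neither gene had a soft region that repeated. When every H3K27me3 list was cut to the length of the shortest, 0 genes had peaks on 1 matrix only, and with a −log10 q of at least 2 the count was 1 (NCAN).

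Among the small leucine-rich proteoglycans, DCN (chr12:91534261-91576994, − strand), whose product decorin binds collagen and transforming growth factor beta, was the only gene of the 10 with p-JUN in both stiff libraries and no soft library. This was seen at 0.422% of all genes for stiff and 0.626% for soft. The peak (chr12:91537809-91538106) lay 39.0 kb from the 5′ end in the last exon, within the annotated 3′ untranslated region of the transcript DCN-201. The nearest annotated start of a DCN transcript was 2 kb away. Its fold was 11.9 and 12.8, from 38 and 42 fragments (exact 95% Poisson intervals 26.9 to 52.2 and 30.3 to 56.8), over a background of 2.27 and 2.37. To the digits given, each background was the lowest of any peak in its list. In the soft libraries no peak was listed there, and the fewest fragments at any listed p-JUN summit were 15 and 14 on soft, so a smaller signal on soft cannot be told from none. By the lower of its −log10 q values it was number 71 of 1690 stiff-only p-JUN regions. The 25 bases at its summit hold neither AP-1 letters nor a TEAD motif.
DCN, last exon, chr12:91537973-91537997, + strand of GRCh37: tgcgtcactcaaggctacaccataa

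No H3K27ac, H3K4me3 or H3K27me3 was listed in the DCN window in any library. Without stiff replicate 1, NCAN was also counted as stiff-only, through the p-JUN peak of stiff replicate 2 at RFXANK (6.53, 21 fragments), and the count was 2. LUM (chr12:91496406-91505271, − strand) encodes lumican, which regulates collagen fibril assembly, and had no peak of any mark. The windows of DCN and LUM overlap, so the empty stretch between them is counted in both. With 50 kb on each side LUM also reached the DCN peak and the stiff-only count was 2.

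BGN (chrX:152760438-152775004, + strand) encodes biglycan. Its p-JUN region lay 25.2 kb from the 5′ end within ATP2B3, with the AP-1 motif. The fold was 7.19 and 9.81 on soft against 6.98 and 7.29 on stiff, so the matrices overlapped in the deposited fold. After centring on each library's median the soft values were above the stiff values, by −0.28 ± 0.16 (stiff minus soft, SE), with a limma adjusted p of 0.633. It was −0.051 without soft replicate 2 and −0.51 without soft replicate 1. H3K27me3 was called in the window in every library, but not at 1 shared place. A peak over the 5′ end was in soft replicate 1 (2.34), a peak beginning 578 bp past it was in stiff replicate 1 (2.38), and a peak at 15.4 kb was in the other soft library (2.25) and in both stiff libraries (2.18 and 2.52). The 5′ end of BGN overlaps HAUS7, and there was no H3K4me3 or H3K27ac.

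FMOD (chr1:203309756-203320886, − strand) encodes fibromodulin, which binds collagen fibrils. The p-JUN region 10.5 kb upstream, with the AP-1 motif at every summit, had a fold of 12.2 and 12.3 on soft against 13.5 and 10.8 on stiff, from 63, 50, 62 and 52 fragments. The stiff values lay on either side of the soft values. H3K4me3 24.3 kb from the 5′ end, past the gene, was called in all 4 libraries (9.72 and 8.72 on soft, 8.35 and 9.05 on stiff), and the nearest start of a protein-coding gene was that of BTG2, 22 kb away. A p-JUN peak there was in stiff replicate 2 only (5.64, 18 fragments).

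ASPN (chr9:95218487-95244788, − strand) encodes asporin and lies inside the span of CENPP. Its stronger p-JUN region, 42.4 kb from the 5′ end, had a fold of 12.6 and 15.7 on soft and 12 in stiff replicate 1 and was not listed in stiff replicate 2. Fragments were 56, 64 and 44. The weaker region 6.91 kb upstream, with the AP-1 motif, was listed in soft replicate 1 (4.97, 17 fragments) and stiff replicate 2 (6.83, 22 fragments). So ASPN counted as called in every library through different places. No histone mark was listed at ASPN.

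HSPG2 (chr1:22148737-22263803, − strand) encodes perlecan and was the other gene with H3K4me3 at its own start in all 4 libraries. Centred 0.696 kb past the 5′ end, it had a fold of 11.1 and 11.8 on soft against 11.4 and 10.9 on stiff, from 197, 259, 260 and 361 fragments. No H3K27me3 was listed in its window in any library, unlike at VCAN. H3K27ac was listed in an intron 5.86 kb past the 5′ end with 74 fragments on soft (58.1 to 92.9, exact 95% Poisson interval) and 77 on stiff (60.8 to 96.2), a fold of 6.44 and 5.90. The intervals overlapped.

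p-JUN was called over that H3K27ac peak in all 4 libraries, with a fold of 5.19 and 5.17 on soft against 5.60 and 6.19 on stiff. Both stiff values were above both soft values, with a limma difference of 0.14 ± 0.091 (SE) and an adjusted p of 0.689. The region 2.58 kb upstream was also in all 4 (4.32, 4.84, 4.69 and 6.49), and its matrices overlapped. The intronic region at 17.6 kb with the AP-1 motif was absent from stiff replicate 1 (7.39 and 6.19 on soft, 7.27 in stiff replicate 2). The region past the 3′ end, at LDLRAD2, was absent from soft replicate 2 (6.71 on soft, 6.25 and 6.22 on stiff).

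**Figure D4:**
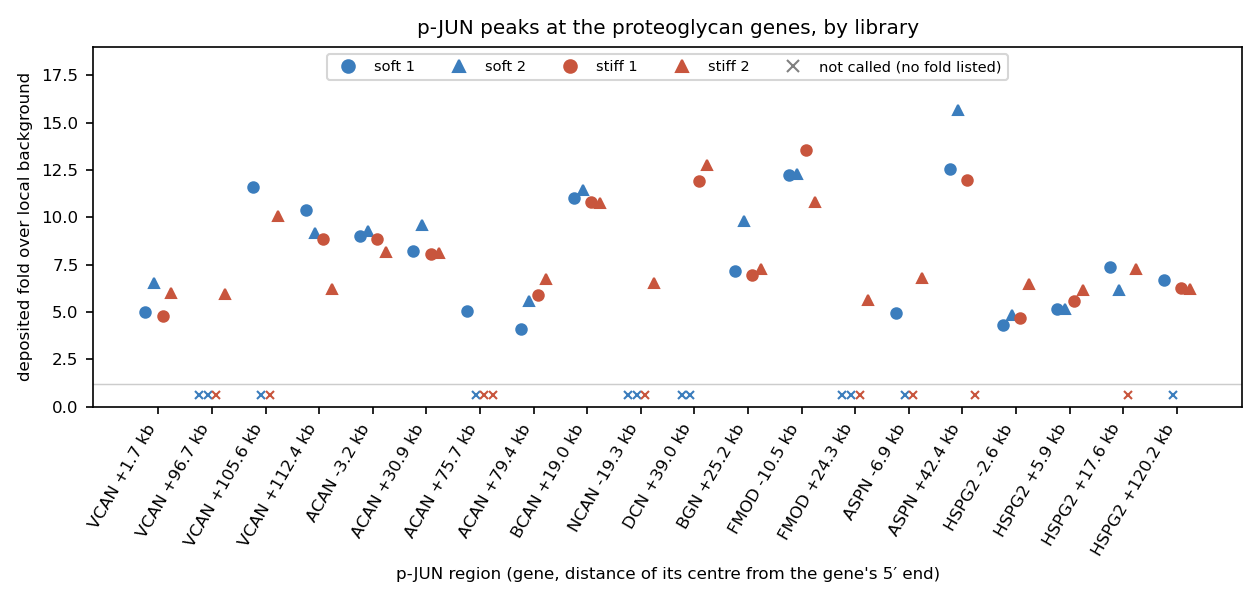
Deposited fold over local background (linear axis) of the 20 p-JUN regions in the windows of the proteoglycan genes, by distance of the region's centre from the gene's 5′ end. Circles are replicate 1 and triangles replicate 2, blue for soft and red for libraries labelled stiff, and a cross below the line marks a library with no listed peak. DCN at 39.0 kb has 2 red points and 2 blue crosses, and 10 regions have a point in all 4 libraries.

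Counted by region, 10 of the 20 p-JUN regions had a peak in all 4 libraries, beside 65.8% of all p-JUN regions, 1 was stiff-only (the DCN peak), beside 2.75%, and 0 were soft-only, beside 1.74%. The other 9 were called in some libraries of both matrices or in 1 library of a matrix. All 7 H3K4me3 regions were called in all 4 libraries, beside 78.9%. Of the 24 H3K27me3 regions 4 were, beside 10.2%, the other 20 were called in some libraries only, beside 81.8%, and 0 were called in both libraries of 1 matrix alone (7.54% of all for soft and 0.484% for stiff). Of the 5 H3K27ac regions 3 were in both lists, beside 54.1%, and 2 were in the soft list only, beside 35%. p-JUN regions that touched H3K27ac were 3 of 20 (at BCAN, NCAN and HSPG2), beside 29.7% of all p-JUN regions.

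The heights of the regions called in all 4 libraries were compared between matrices with limma on log2 fold, fitted over all such regions of a mark. None of the 10 p-JUN, 7 H3K4me3 and 4 H3K27me3 regions of the proteoglycan genes had an adjusted p under 0.05, and none had an unadjusted p under 0.05. Over all 40433 p-JUN, 16098 H3K4me3 and 2602 H3K27me3 regions tested, limma also called 0, which is 0%, while 3833, 1635 and 172 had an unadjusted p under 0.05, which is 9.48%, 10.2% and 6.61%. The lowest limma adjusted p among the proteoglycan regions was 0.536 in p-JUN, 0.620 in H3K4me3 and 0.873 in H3K27me3. For p-JUN the stiff minus soft differences of these regions spanned −0.44 to 0.35, with a median of −0.12 beside −0.0088 over all regions. Those of H3K4me3 spanned −0.16 to 0.096 (median −0.058 beside −0.0046), and those of H3K27me3 −0.092 to 0.085 (median −0.0028 beside −0.0086). The centred values of the matrices did not overlap in 5 of 10, 2 of 7 and 1 of 4 regions, beside 39.7%, 41.7% and 35.4% of all regions tested. At VCAN the differences were −0.14 ± 0.15 for the intronic p-JUN region, −0.058 ± 0.095 for H3K4me3 and 0.085 ± 0.12 for H3K27me3 (SE), with limma adjusted p of 0.843, 0.874 and 0.937. These p-values measure the spread between 2 libraries of a matrix, which the labels only number, and do not show that heights were equal. An exact permutation test of 2 libraries against 2 cannot give a p under 0.33.

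**Figure D5:**
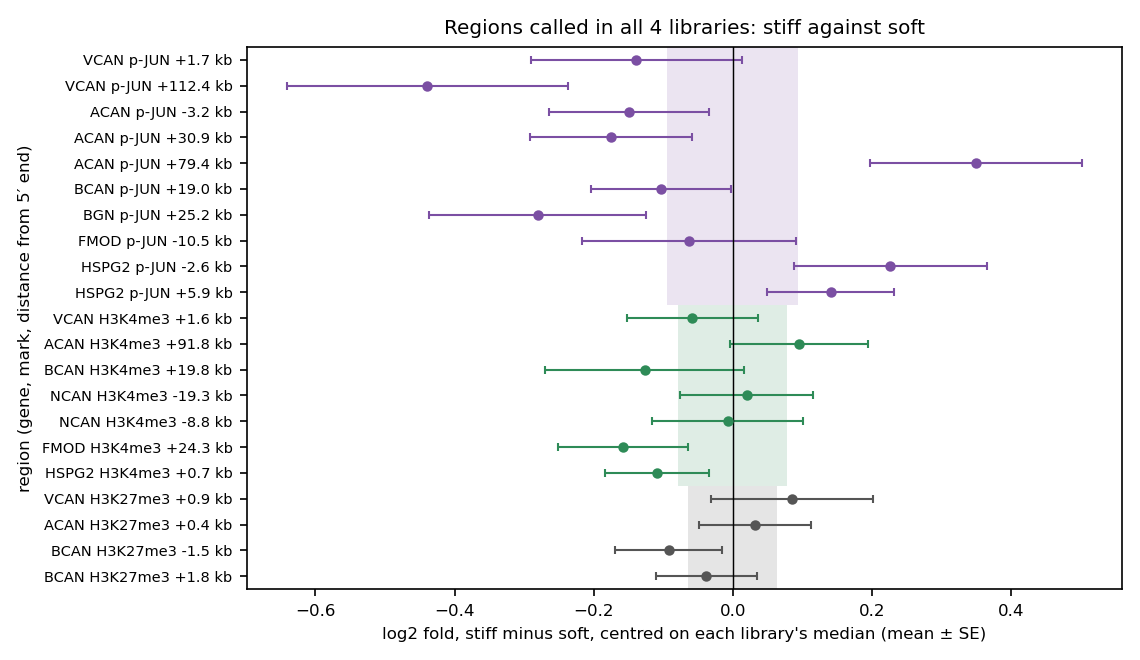
Difference in centred log2 fold, stiff minus soft, of the 21 regions of the proteoglycan genes called in all 4 libraries of p-JUN (purple), H3K4me3 (green) and H3K27me3 (grey). Points are limma estimates and bars ± 1 SE (2 libraries against 2), and the shaded band is the median absolute difference over all regions of the mark (0.094, 0.078 and 0.064). The VCAN region at 112.4 kb and the ACAN region at 79.4 kb lie farthest from 0, at −0.44 and 0.35.

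CpG content differed widely among the 10 starts. In the 300 bases around the 5′ end the ratio of observed to expected CpG was 1.07 at HSPG2, 0.835 at NCAN, 0.764 at ACAN, 0.688 at BGN and 0.562 at VCAN, beside a median of 0.732 over all genes. It was 0.349 at LUM, 0.176 at ASPN, 0.120 at BCAN, 0.111 at DCN and 0 at FMOD. The 2 genes with H3K4me3 at their own start, HSPG2 and VCAN, were among the 5 with the higher ratios. NCAN, ACAN and BGN had higher ratios than VCAN but H3K4me3 at their own start in 0 libraries, and VCAN was below the median. DCN, LUM and ASPN, where no histone mark was listed, were among the 5 with the lower ratios, as were BCAN and FMOD, whose windows held histone marks. This is a description of 10 genes with no test.

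Genes that make, link, carry or cut such proteoglycans were counted by the same windows. Of 56 such genes, p-JUN was called in every library at 37, beside 74.2% of all genes, in no library at 10, beside 16.4%, and on 1 matrix only at 0. H3K4me3 was called in every library at 38, beside 75.5%, and on 1 matrix only at 0, beside 0.397%. Among the 11 enzymes that build the glycosaminoglycan linker and chains all 11 had H3K4me3 in every library, and among the 10 other small leucine-rich proteoglycans 3 did, which with lists this short describes these genes only.

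H3K27ac was in both lists at 19 of the 56, beside 47.7% of all genes. It was in the soft list only at 12, beside 11.9%, and in the stiff list only at 0, beside 2.97%. The soft-only 12 were the link protein genes HAPLN2 and HAPLN3, PODN, PODNL1, SPOCK2, GPC5, the hyaluronan synthases HAS1 and HAS2, ADAMTS15, and the linker and chain enzymes XYLT2, B4GALT7 and CHPF. The soft list was the longer and there was 1 list per matrix. At XYLT2 and CHPF the soft list held 2 peaks in the window and the stiff list 0, at GPC5 also 2 and 0, and at the other 9 it held 1 and 0. H3K27me3 was called in every library at 3 of the 56, beside 10.6% of all genes, and on soft only at 3 (HAPLN4, HAS1 and XYLT1), beside 3.61%. It overlapped H3K4me3 in all 4 library pairs at 0 of the 56, beside 0.646%. HAPLN2, HAPLN3 and HAPLN4 share windows with BCAN, ACAN and NCAN, so some of these peaks are the same.

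Covered bases over the 14 lists were compared with those of VCAN on a log2 scale. The genes most like VCAN were MGAT4D (Pearson's r 0.995), EEF1AKMT4-ECE2 (0.994), XKR6 (0.994), C16orf96 (0.993) and CFAP161 (0.993). In all, 144 genes had an r over 0.95. On this scale an empty list lies far from any filled list, so which lists are empty weighs heavily in the r. VCAN was empty in both H3K27ac lists. The 14 lists also differ in mark and length, which these genes share with VCAN, so the r is only a description. Among the other 9 proteoglycan genes the highest r was that of ACAN, 0.932, and that of FMOD was 0.746. The order by rank correlation differed, with a Spearman's rho of 0.0176 for ACAN and 0.852 for FMOD.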

How the data were processed

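CUT&Tag reads of LX-2 cells were trimmed with Trim Galore, aligned to hg19 (GRCh37) with Bowtie2, and duplicates were treated with Picard, per the submitters' processing notes and the study's methods, and the authors called peaks with MACS2, whose version, options and control are not given in the sources used here. The authors deposited, per peak, a fold, a −log10 p, a −log10 q and a score equal to 10 times −log10 q rounded down. For narrow peaks the fold was read as summit over local background with the same constant added to both. It is therefore lower than fragments divided by background. H3K27me3 lists hold broad peaks with averaged values. The labels and the methods give different numbers of cells per assay. Read depth is unknown. Fragments at narrow summits were recovered from the deposited fold and −log10 p (for at least 99.868% of peaks per list, to a relative error of 1e-04), and intervals on them cover counting error only.

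Gene models were protein-coding genes of GENCODE release 44 on GRCh37. Peaks on 24 chromosomes were merged into regions per mark at 1 bp of overlap. A call on 1 matrix only needed every library of that matrix and none of the other. log2 of the deposited fold was tested with limma 3.58.1 (R 4.3.3) and Benjamini-Hochberg adjustment over all regions called in all 4 libraries, and the steps were tested on simulated data. Windows were scanned with python 3.11.15 and pandas 2.3.3. The 10 genes, their regions in order, the pathway lists and the 5 genes most like VCAN were named by rule. The genes and lists were chosen with earlier results of these data known. PECAM1, among the endothelial markers, was not in the gene models used. Alternatives were other windows, thresholds and list lengths, each replicate left out, and for limma quantile normalization, a filter, a replicate block and fragments in place of fold. The sequence of 1 p-JUN region is not reported here.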

Additional observations from a re-analysis of the deposited data

How the results depend on the processing

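The counts of genes called in every library depended mostly on the window. With the gene body alone they were 3 for p-JUN, 1 for H3K27ac and 2 for H3K4me3, and genes with H3K27me3 on 1 matrix only were 1. With 50 kb on each side, H3K27ac was called in both lists at 5 genes and p-JUN on 1 matrix only at 2. With a −log10 q of at least 10 (narrow) or 2 (broad), genes called on 1 matrix only were 1 for H3K27ac (NCAN) and 1 for H3K27me3, and with lists of equal length 0 for H3K27me3. Leaving out 1 replicate gave 1 to 2 genes with p-JUN on 1 matrix only and changed none of the other counts of genes. Joint H3K4me3 and H3K27me3 at VCAN was kept with 200 bp shared, other windows, crossed replicate numbers and each replicate left out, and the count was 3 with both marks anywhere in the window.

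limma called 0 of the proteoglycan regions under every alternative. Over all regions it called 0 as well, except for 10 H3K4me3 regions with fragments in place of fold and 5 H3K27me3 regions with the replicate block. With replicate number as a block, 0 p-JUN, 0 H3K4me3 and 0 H3K27me3 regions of these genes were called. Deviations of same-numbered libraries correlated at 0.00468, −0.0501 and 0.0363, so no shared deviation in fold was seen. This does not settle whether same-numbered libraries were prepared together. The sign of 9 of 21 differences turned under some alternative. With fragments, H3K4me3 was 0.096 at VCAN and −0.083 at HAPLN3 in the ACAN window. In that setting 3 p-JUN regions and 1 H3K4me3 region of these genes had an unadjusted limma p under 0.05. The p-JUN regions were at BCAN (−0.37), BGN (−0.43) and 112.4 kb from the VCAN 5′ end (−0.63). The H3K4me3 region, past FMOD, had −0.50 and a limma adjusted p of 0.075. With the replicate block 2 p-JUN regions had an unadjusted limma p under 0.05. Leaving out 1 replicate gave −0.34 to 0.060 for the intronic p-JUN region of VCAN, −0.14 to 0.024 for its H3K4me3 and −0.070 to 0.24 for its H3K27me3. It gave −0.29 to 0.16 for p-JUN upstream of FMOD, −0.33 to 0.075 for H3K4me3 at BCAN, −0.095 to 0.13 for that at RFXANK and −0.13 to 0.12 for that at NR2C2AP, and −0.028 to 0.093 for H3K27me3 at the ACAN start. The cause was not tested. The fewest fragments at a listed p-JUN summit were 14 or 15, so a signal below that cannot be told from none. Whether depth bears on the peaks called in some libraries only was not tested.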
